A study of Mus musculus with 12 samples.

Results

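The 9 genes described here set how mouse cells sense, take up and export cholesterol: Srebf2, Srebf1, Scap, Insig1, Insig2, Nr1h2, Mylip, Abca1 and Abcg1. They were chosen by name, from their known roles, with earlier results of these data known. All 9 are among the 24453 genes of the count table. Total RNA depleted of ribosomal RNA was sequenced from 4 lines of C57BL6/J mouse embryonic fibroblasts (MEFs), with 3 cultures of each. All 4 lines come from cells of the Pnpt1 neo-flox/neo-flox genotype and were grown with 10% serum and 50 μg/mL uridine. TM6 is the untreated parent. The rho0 line was made from it with ditercalinium dichloride dihydrochloride, an agent that depletes mitochondrial DNA, at 750 ng/mL during 3 weeks, and then cloned from a single cell. PKO-1 and PKO-6 are single-cell colonies of TM6 cells that received Cre recombinase from an adenovirus. Cre deletes the floxed part of Pnpt1, the gene of the RNA-processing enzyme PNPase. Each derived line is thus 1 clone, so the treatment and the history of the clone cannot be told apart, and no adenovirus without Cre was analysed here. The study reported that PKO-1 and PKO-6 also lack mitochondrial DNA, and that neither they nor rho0 respire. Both clones thus differ from TM6 in PNPase and in mitochondrial DNA.

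The libraries held 47164860 to 67991378 gene counts. Normalized counts of Pnpt1 were 2832, 3242 and 3319 in TM6, 5051, 5251 and 5510 in rho0, 1254, 1191 and 1276 in PKO-1 and 1897, 1720 and 2214 in PKO-6. A normalized count is a count divided by the relative, TMM-scaled size of its library. Pnpt1 was lower in both clones than in TM6 but not absent. The counts cover the whole gene, of which Cre deletes only a part. The study reported no detectable PNPase protein in the clones. The summed normalized counts of 10 fibroblast markers were 538185 to 586155 in TM6, 451864 to 504828 in rho0, 608572 to 658469 in PKO-1 and 355750 to 396683 in PKO-6. A gene was called where edgeR adjusted p was below 0.01 and the log2 fold change above 0.5 in size. Of 9 tested fibroblast markers, 3 were called lower and 1 higher in rho0 than in TM6, beside 29.3% of all tested genes called. In PKO, with both clones pooled, 2 were lower and 2 higher, beside 25.7%. The clones differed, with 2 lower and 4 higher in PKO-1 and 6 lower and 2 higher in PKO-6, beside 34.3% and 41.3%. The part of these markers in the results was not tested. Among markers of macrophages, cells known for high expression of cholesterol exporters, Adgre1 had 0 counts in all 12 libraries and Ptprc had at most 3 counts in any. The 8 macrophage and leukocyte markers summed to 371 to 400 normalized counts in TM6, 262 to 328 in rho0, 492 to 506 in PKO-1 and 507 to 617 in PKO-6. Most of that sum was Cd14 and Cd68, and the markers did not move together. Cd14 was called lower in rho0 at a log2 fold change of -0.86 and higher in PKO-1 at 0.51, and Cd68 was called higher in PKO-6 at 1.02. Lyz2 averaged 50.8 normalized counts in PKO-6, where it was called higher, and had at most 1 count in any library of the other lines. Their part in the results was not tested either.

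Cells hold their cholesterol level by feedback. The transcription factors SREBP-2 and SREBP-1, encoded by Srebf2 and Srebf1, are made as precursors in the membrane of the endoplasmic reticulum, and the escort protein Scap carries them to the Golgi, where proteases release the part that enters the nucleus. When sterols are plentiful, Insig-1 and Insig-2 hold Scap back. SREBP-2 mainly drives cholesterol synthesis and cholesterol uptake, and SREBP-1 mainly drives fatty acid synthesis. Liver X receptors (LXRs), among them LXR-beta from Nr1h2, respond instead to oxysterols and raise export through Abca1 and Abcg1, and through Mylip they limit uptake. Much of this circuit was worked out in cultured fibroblasts.

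The start regions of 3 members are shown because the letters CCAAT, which the factor NF-Y reads beside SREBP at many sterol-regulated genes, lie in each of them, and because all 3 genes were lower in both knockout clones. Each window runs from 250 bases before to 50 bases after the RefSeq start on GRCm38.p6 and is written 5′ to 3′ on the strand of the gene. Capitals mark CCAAT read on the opposite strand.
Srebf2 (chr15:82147019-82147318, plus strand): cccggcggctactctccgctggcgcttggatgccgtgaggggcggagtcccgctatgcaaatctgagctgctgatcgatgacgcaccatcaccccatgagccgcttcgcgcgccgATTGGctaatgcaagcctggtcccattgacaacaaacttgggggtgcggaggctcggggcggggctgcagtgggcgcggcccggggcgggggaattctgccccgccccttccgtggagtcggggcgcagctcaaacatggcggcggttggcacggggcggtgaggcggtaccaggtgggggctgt
Insig1 (chr5:28071162-28071461, plus strand): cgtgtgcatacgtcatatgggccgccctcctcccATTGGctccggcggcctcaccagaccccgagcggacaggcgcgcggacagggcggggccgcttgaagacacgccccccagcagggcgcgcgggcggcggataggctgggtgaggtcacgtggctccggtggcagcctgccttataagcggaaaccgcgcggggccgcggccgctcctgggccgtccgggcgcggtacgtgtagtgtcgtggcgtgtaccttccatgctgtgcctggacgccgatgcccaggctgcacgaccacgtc
Mylip (chr13:45389492-45389791, plus strand): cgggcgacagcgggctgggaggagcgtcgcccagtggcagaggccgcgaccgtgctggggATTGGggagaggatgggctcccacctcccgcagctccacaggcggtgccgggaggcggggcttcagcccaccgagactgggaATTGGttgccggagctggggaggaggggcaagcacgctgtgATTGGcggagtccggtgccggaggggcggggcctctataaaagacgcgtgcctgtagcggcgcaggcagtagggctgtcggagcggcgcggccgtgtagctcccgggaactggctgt

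The match begins 135 bases before the start of Srebf2 and 216 bases before that of Insig1, and those of Mylip begin 190, 108 and 67 bases before its start. Windows of RefSeq were at hand for 8 of the 9 members. Of all 32851 mouse windows of this length, 37.4% hold CCAAT on either strand. The windows of Scap, Nr1h2 and Abca1 hold none, although Abca1 was lower in both clones. Srebf1 and Insig2 are not shown, since each has several listed starts, of which some hold CCAAT and some do not. Srebf1 was also lower in both clones. The window of the most upstream Insig2 start holds 3 matches. Against TM6, Insig2 was at a log2 fold change of -0.02 in PKO-1 and -0.69 in PKO-6. Whether these letters bear on the changes was not tested. The sterol regulatory element searched as TCACNCCAC was found in 1.24% of all windows and in none of the members' windows. The LXR repeat called DR4, AGGTCA repeated in one direction with 4 bases between, was found in 0.0152% of all windows and in none of the members' windows. The E box CANNTG, found in 72.3% of all windows, can overlap the other letters. Each search took its letters exactly, so sites that depart from them by a base were missed. A window without a match can therefore still hold a variant of the element. These are matches of letters in short windows, not measured binding.

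Most members were lower in each line derived from TM6, and Nr1h2 was not called in any. A gene was called where the adjusted p of edgeR's quasi-likelihood test, over all 14026 tested genes, was below 0.01 and the log2 fold change was above 0.5 in size. Abcg1 did not pass the filter on low counts, so 8 members were tested. Between rho0 and TM6, Srebf2, Srebf1, Insig1, Insig2 and Abca1 were called, all 5 lower in rho0, against 29.3% of all tested genes called in either direction and 15.6% called lower. Between PKO, with both clones pooled, and TM6, 5 members were called lower (Srebf2, Srebf1, Insig1, Mylip and Abca1), against 25.7% of all tested genes called and 12.2% called lower. No member was called higher in either comparison. The median log2 fold change of the 8 tested members was -0.72 in rho0 and -0.93 in PKO, while the median of all tested genes was 0.02 and 0.03. Taken alone, PKO-1 had 6 members lower than TM6 (Srebf2, Srebf1, Scap, Insig1, Mylip and Abca1), against 34.3% of all tested genes called and 17.9% called lower. PKO-6 also had 6 lower (Srebf2, Srebf1, Insig1, Insig2, Mylip and Abca1), against 41.3% called and 19.4% called lower. These comparisons share the 3 TM6 libraries. In bulk RNA, fewer cells expressing a gene and less RNA of it per cell cannot be told apart.

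**Figure D1:**
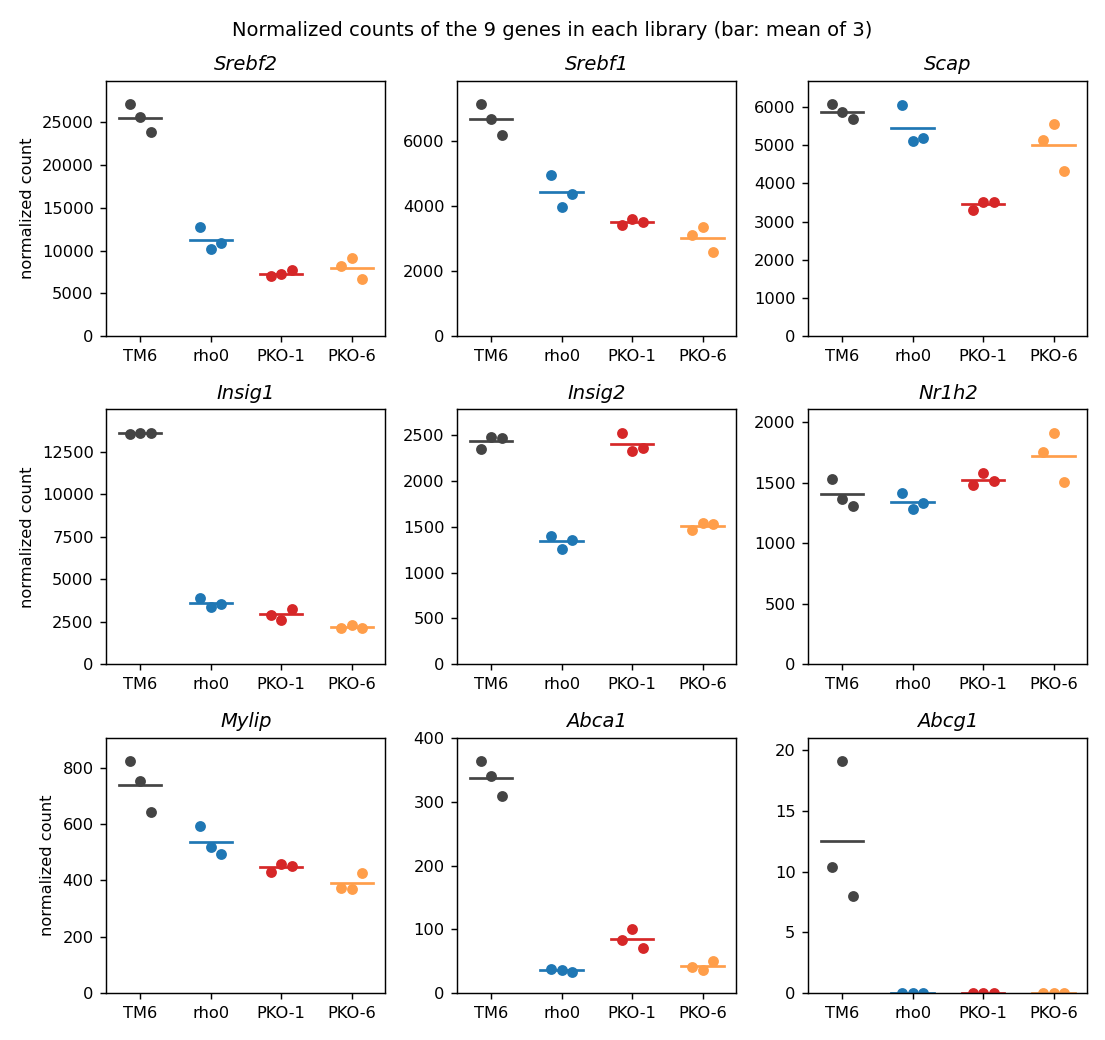
Normalized counts of the 9 members on a linear axis from 0 in each library, with 3 points and their mean as a bar for each of the 4 lines. All 3 TM6 libraries lie above the other 9 for Srebf2, Srebf1, Insig1, Mylip, Abca1 and Abcg1, while Insig2 in PKO-1 lies at the TM6 level and Nr1h2 overlaps between TM6 and each other line.

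Srebf2 (chromosome 15, 82147269 to 82204960, plus strand) encodes SREBP-2 and was the most abundant transcription factor of the set. Its normalized counts were 27140, 25640 and 23870 in TM6, 12710, 10240 and 10850 in rho0, 7042, 7204 and 7683 in PKO-1 and 8169, 9167 and 6714 in PKO-6. Every TM6 library was above every rho0 library, and every rho0 library was above every PKO library, whereas the clones overlapped. Relative to TM6, the log2 fold change was -1.18 in rho0 (standard error, SE, 0.12, edgeR adjusted p = 1.39e-05) and -1.74 in PKO (SE 0.0988, edgeR adjusted p = 1.37e-07). It was -1.81 in PKO-1 and -1.67 in PKO-6, and between the clones it was -0.13 with a 95% interval of -0.36 to 0.09. The microRNA gene Mir33 lies inside Srebf2 on the same strand and was not counted apart here. The genes of chromosome 15 had a median log2 fold change of -0.38 in rho0, and with the median of each chromosome removed Srebf2 stayed called at -0.77.

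Srebf1 (chromosome 11, 60199084 to 60220627, minus strand) encodes SREBP-1, the form turned mainly toward fatty acids and itself a known target of LXR. Normalized counts were 7145, 6677 and 6205 in TM6, 4970, 3973 and 4366 in rho0, 3436, 3621 and 3512 in PKO-1 and 3103, 3372 and 2599 in PKO-6. The lines fell in the order TM6, rho0, PKO-1 and PKO-6 with no overlap between neighbours. The log2 fold change was -0.59 in rho0 (SE 0.122, edgeR adjusted p = 0.00199) and -1.03 in PKO (SE 0.103, edgeR adjusted p = 1.01e-05). The clones differed by a log2 fold change of 0.22, which was not called (edgeR adjusted p = 0.0595, 95% interval 0.01 to 0.43). Srebf1 fell less than Srebf2, so the count ratio of Srebf2 to Srebf1 in a library was 3.83 ± 0.026 in TM6, 2.54 ± 0.0484 in rho0, 2.08 ± 0.102 in PKO-1 and 2.64 ± 0.0684 in PKO-6 (mean ± SD over 3 cultures). Both listed Srebf1 transcripts begin at one start and differ in length by 15 bases, so forms of SREBP-1 from other first exons could not be told apart. The gene overlaps Rai1 on the opposite strand and 2 microRNA genes on its own.

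Scap (chromosome 9, 110333288 to 110384949, plus strand) encodes the escort that both SREBPs need. Its normalized counts were 6079, 5864 and 5681 in TM6, 6056, 5108 and 5183 in rho0, 3315, 3526 and 3519 in PKO-1 and 5136, 5569 and 4316 in PKO-6. PKO-1 stood below every other library, and rho0 overlapped TM6. The log2 fold change was -0.11 in rho0, not called, with a 95% interval of -0.51 to 0.29 (SE 0.184, edgeR adjusted p = 0.644). In PKO-1 it was -0.77 (SE 0.0866, edgeR adjusted p = 3.4e-06), and in PKO-6 it was -0.23 and not called (SE 0.0856, edgeR adjusted p = 0.0273). With the clones pooled it was -0.47 and not called (edgeR adjusted p = 0.0262), although it was called at -0.60 without PKO-6 replicate 2. The genes of chromosome 9 moved with Scap in PKO-1, with a median log2 fold change of -0.39 against TM6. With the chromosome medians removed, Scap in PKO-1 was at -0.38 and no longer passed the fold threshold.

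Insig1 (chromosome 5, 28071412 to 28078662, plus strand), the sterol-responsive anchor of Scap and itself a known SREBP target, fell furthest of the tested members in PKO-1, and in rho0 and PKO-6 by more than any other except Abca1. Normalized counts were 13550, 13620 and 13580 in TM6, 3890, 3397 and 3560 in rho0, 2930, 2607 and 3285 in PKO-1 and 2113, 2309 and 2126 in PKO-6. The lines did not overlap, and the TM6 libraries differed from one another by far less than those of any other line. The log2 fold change was -1.91 in rho0 (SE 0.156, edgeR adjusted p = 3.05e-06) and -2.41 in PKO (SE 0.126, edgeR adjusted p = 7.6e-08). The clones stood at -2.21 and -2.64, and their difference of 0.43 was past the p threshold but below the fold threshold (edgeR adjusted p = 0.000266).

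Insig2 (chromosome 1, 121304353 to 121332589, minus strand), the second anchor of Scap, did not follow Insig1. Its normalized counts were 2341, 2474 and 2467 in TM6, 1403, 1259 and 1354 in rho0, 2522, 2324 and 2359 in PKO-1 and 1467, 1535 and 1528 in PKO-6. PKO-1 overlapped TM6 from end to end, while rho0 and PKO-6 lay well below both and did not overlap each other. The log2 fold change was -0.02 in PKO-1, with a 95% interval of -0.13 to 0.10 (edgeR adjusted p = 0.814), and -0.69 in PKO-6 (SE 0.054, edgeR adjusted p = 6.21e-08). In rho0 it was -0.86 (SE 0.208, edgeR adjusted p = 0.00507). In that fit both clones counted as 1 group, so the gap between them entered the spread. The rho0 call was lost when any 1 of the 6 TM6 and rho0 libraries was left out, with adjusted p of 0.012 to 0.0208 and log2 fold changes of -0.91 to -0.84. With the 4 lines fitted separately the same change had an adjusted p of 7.62e-09.

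The balance of both anchors therefore differed between the lines. The count ratio of Insig1 to Insig2 was 5.60 ± 0.163 in TM6, 2.70 ± 0.0727 in rho0, 1.23 ± 0.146 in PKO-1 and 1.45 ± 0.0566 in PKO-6 (mean ± SD over 3 cultures). Its range in the PKO-1 libraries, 1.12 to 1.39, met that of PKO-6, which began at 1.39, and the other lines did not overlap. Srebf2 relative to its escort Scap gave 4.35 ± 0.133 in TM6, 2.07 ± 0.0526 in rho0, 2.12 ± 0.0704 in PKO-1 and 1.60 ± 0.0454 in PKO-6. Here rho0 and PKO-1 overlapped, and PKO-6 stood below them.

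**Figure D2:**
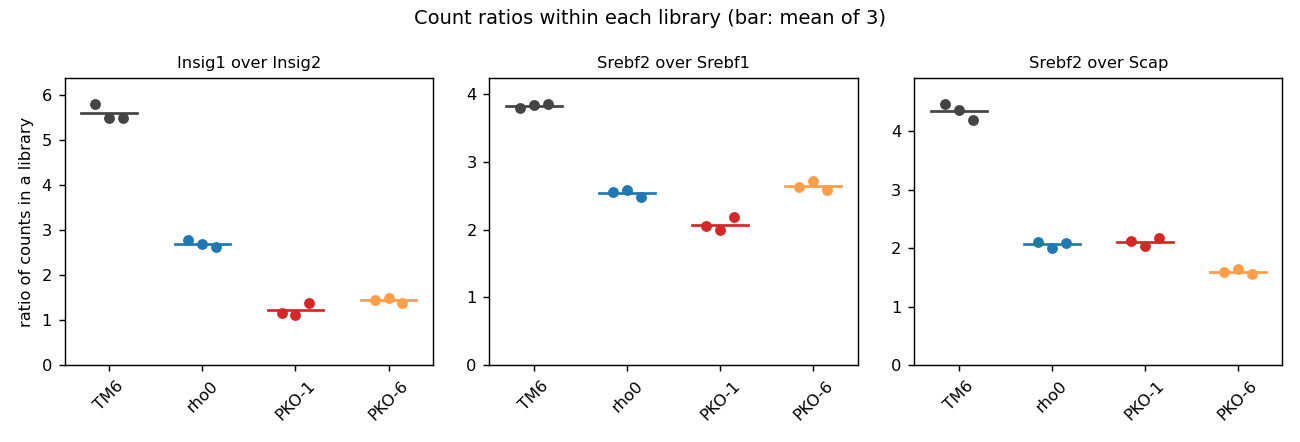
Ratio of the counts of 2 genes within each library for 3 pairs of genes, on linear axes from 0, with 3 points and their mean as a bar per line. TM6 is highest in each of the 3 panels, and the ratio of Insig1 to Insig2 falls from 5.60 in TM6 to 2.70 in rho0, 1.23 in PKO-1 and 1.45 in PKO-6.

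Nr1h2 (chromosome 7, 44549616 to 44553965, minus strand) encodes LXR-beta, the broadly expressed LXR. Normalized counts were 1536, 1371 and 1312 in TM6, 1420, 1283 and 1330 in rho0, 1482, 1581 and 1514 in PKO-1 and 1756, 1915 and 1506 in PKO-6. Each other line overlapped TM6. Nr1h2 was not called in any comparison. The log2 fold change was -0.06 in rho0 with a 95% interval of -0.30 to 0.17, and 0.21 in PKO with an interval of 0.01 to 0.41 (edgeR adjusted p = 0.633 and 0.0828). In PKO-6 alone it was 0.29, past the p threshold and below the fold threshold (edgeR adjusted p = 0.00625). The other LXR gene, Nr1h3, was near the detection limit, with 17.2 to 24.21 normalized counts in TM6 and 4.146 to 16.62 in the other lines.

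Mylip (chromosome 13, 45389742 to 45411940, plus strand) encodes IDOL, a ubiquitin ligase that LXR induces and that limits the uptake of lipoproteins. Its normalized counts were 823.1, 752.8 and 643.2 in TM6, 593.8, 518.6 and 492.4 in rho0, 428.5, 458 and 452 in PKO-1 and 370.9, 367.9 and 427.6 in PKO-6. The order of the lines was that of Srebf1, again without overlap. The fall was called in PKO (log2 fold change -0.83, SE 0.11, edgeR adjusted p = 8.91e-05), in PKO-1 at -0.73 and in PKO-6 at -0.93. In rho0 it was -0.47 and not called (SE 0.131, edgeR adjusted p = 0.0111), and it was called at -0.56 without TM6 replicate 3 or without rho0 replicate 1. Mylip in PKO-1 moved with its chromosome, whose median was -0.27, and without the chromosome medians it was at -0.42 and not called.

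Abca1 (chromosome 4, 53030789 to 53159895, minus strand), the transporter that loads cholesterol onto apolipoprotein A-I, fell furthest of the tested members in rho0. Normalized counts were 364, 340.1 and 309.1 in TM6, 36.81, 36.57 and 33.5 in rho0, 83.33, 100.1 and 70.33 in PKO-1 and 40.94, 35.24 and 49.45 in PKO-6. TM6 stood apart from all other libraries, PKO-1 lay between, and PKO-6 overlapped rho0. The log2 fold change was -3.24 in rho0 (SE 0.372, edgeR adjusted p = 3.41e-05) and -2.42 in PKO (SE 0.283, edgeR adjusted p = 3.41e-05). It was -3.01 in PKO-6 alone and -2.0 in PKO-1 alone, with a 95% interval there of -2.31 to -1.68, so that in PKO-1 Insig1 was the member with the larger fall. Abcg1 (chromosome 17, 31057694 to 31117981, plus strand), which exports cholesterol to high-density lipoprotein, was barely expressed. TM6 had 12, 20 and 8 counts, and each of the 9 other libraries had 0. With the TM6 level taken as exact and a limit of 3 counts over the group, Abcg1 was at least 11.8-fold lower in rho0. The same bound was 11.4-fold in PKO-1 and 13.4-fold in PKO-6. These bounds cover counting error in the derived lines only, not that of the 40 TM6 counts. Fitted without the filter on low counts, Abcg1 passed the p threshold in rho0, PKO, PKO-1 and PKO-6 against TM6 (edgeR adjusted p = 0.0066, 0.00223, 0.000453 and 0.000257). Summed hepatocyte markers were also highest in TM6, at 285 to 317 normalized counts against 6 to 46 in the other lines, nearly all from Apob, a known lipoprotein gene, while Ttr had 0 counts and Alb and Hnf4a had at most 1 count in any library. Their part in the result was not tested.

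**Figure D3:**
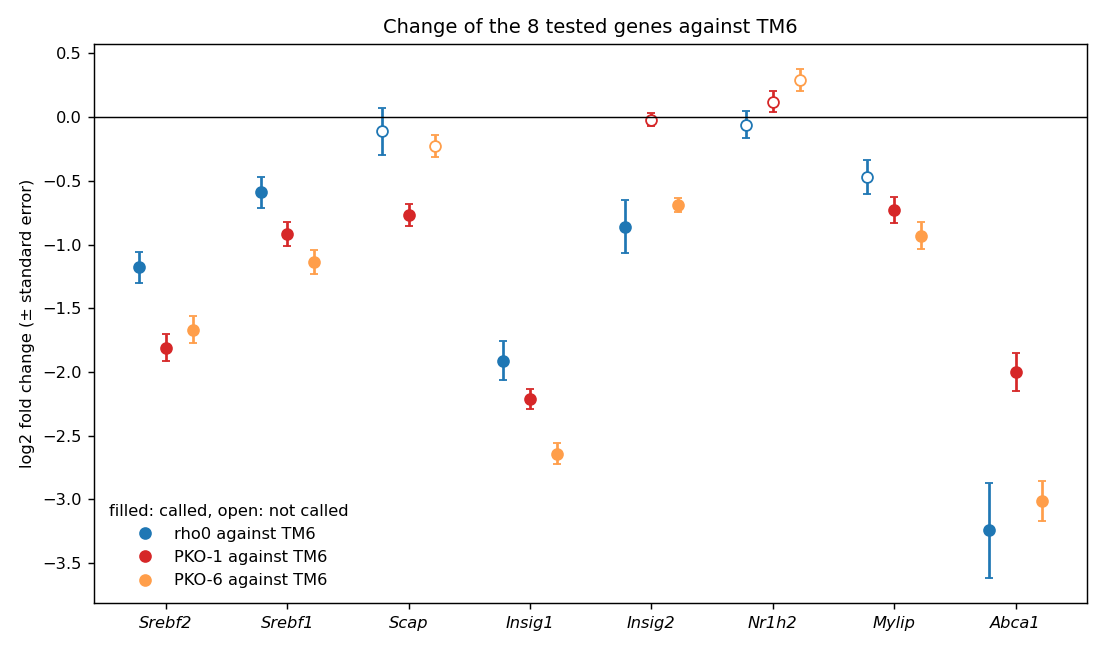
Log2 fold changes against TM6 of the 8 tested members in rho0, PKO-1 and PKO-6, with standard errors as bars, filled where the gene was called. Srebf2, Srebf1, Insig1 and Abca1 are filled in all 3 lines, Scap only in PKO-1 and Nr1h2 in none, and Insig2 in PKO-1 lies at -0.02.

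Per length, in TPM, a transcript share corrected for length and depth, the members spanned more than 3 orders of magnitude in TM6. Mean levels there were 176 ± 11.6 TPM for Srebf2 and 167 ± 1.03 for Insig1, which overlapped (mean ± SD over 3 cultures). Srebf1 at 48.8 ± 3.52 and Scap at 44.3 ± 1.58 came next and overlapped. Insig2 followed at 31.1 ± 0.963 TPM and Nr1h2 at 23.3 ± 1.96, then Mylip at 6.99 to 8.95 and Abca1 at 1.01 ± 0.085. Abcg1 was last at 0.0667 ± 0.0306 TPM. From Srebf2 down to Nr1h2, the levels were closer together in PKO-1. There Srebf2 was at 48.2 TPM, Insig1 at 34.6, Insig2 at 29.5, Scap at 24.9, Srebf1 at 24.6 and Nr1h2 at 24.1. Below these, Mylip was at 4.61 TPM in PKO-1, Abca1 at 0.243 and Abcg1 at 0. In PKO-6 Nr1h2 at 27.4 ± 1.53 TPM was above Srebf1 at 21.2 ± 1.47 and Insig2 at 18.6 ± 1.62 without overlap, the reverse of TM6.

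Compared directly, PKO and rho0 differed in 1 member. Srebf2 was lower in PKO by a log2 fold change of -0.56 (SE 0.101, edgeR adjusted p = 0.00188), in a comparison where 10.7% of all tested genes were called in either direction. The call was lost without rho0 replicate 1, at -0.48. Srebf1 at -0.44 passed the p threshold only (edgeR adjusted p = 0.00849). Insig1 at -0.50 and Insig2 at 0.55 were not called (edgeR adjusted p = 0.0131 and 0.0399), and Insig1 was called at -0.58 without PKO-1 replicate 3. Abca1 was at 0.82 with a 95% interval of 0.13 to 1.51 and was not called (edgeR adjusted p = 0.0654). Fitting the 4 lines separately, which takes the gap between the clones out of the spread, called 4 members (Srebf2, Insig1, Insig2 and Abca1). Over all tested genes that fit called 3330, against 1500 in the fit of 3 groups. For Abca1 PKO-6 overlapped rho0, and Insig2 averaged 2402 normalized counts in PKO-1, 1510 in PKO-6 and 1339 in rho0.

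Between the clones, 3 members were called, against 29.1% of all tested genes in either direction. Abca1 was higher in PKO-1 than in PKO-6 by a log2 fold change of 1.01 (SE 0.167, edgeR adjusted p = 0.000137), and Insig2 was higher by 0.67 (SE 0.0541, edgeR adjusted p = 1.48e-07). Scap was lower in PKO-1 at -0.54 (SE 0.0865, edgeR adjusted p = 0.000111). The genes of chromosome 9 had a median of -0.37 between the clones, and with the chromosome medians removed the Scap difference was -0.17 and not called (edgeR adjusted p = 0.0959). It also fell below the fold threshold, at -0.45, without PKO-6 replicate 2. The differences of Abca1 and Insig2 remained called with the chromosome medians removed, at 1.19 and 0.70. Mylip lies on chromosome 13, whose genes had a median of -0.41 between the clones. It was at 0.20 and not called (edgeR adjusted p = 0.122), and at 0.59 and called with the chromosome medians removed.

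**Figure D4:**
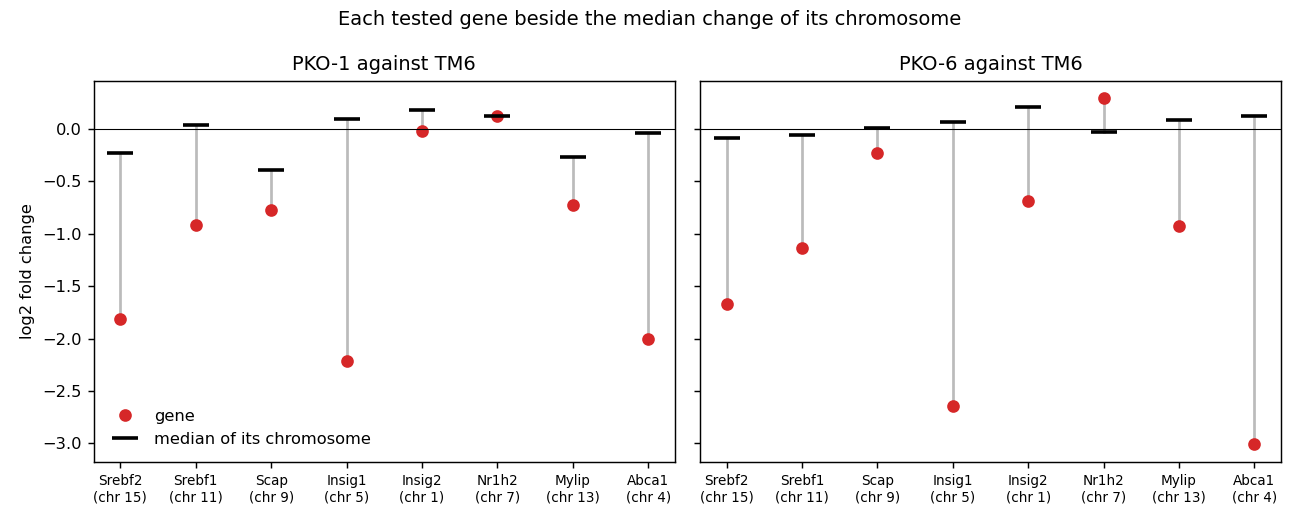
Log2 fold change of each tested member against TM6 in PKO-1 and PKO-6 (points) beside the median log2 fold change of all tested genes on its chromosome (bars). Srebf2, Srebf1, Insig1 and Abca1 lie far below their chromosomes in both clones, and Scap in PKO-1, at -0.77, lies beside a chromosome 9 median of -0.39.

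Several members are listed with more than 1 transcript. Insig2 is transcribed from an upstream start, at position 121332589, and from starts a few kilobases downstream. The transcript from the upstream start took 59.8% ± 3.92 of the Insig2 counts in TM6, 52.2% ± 6.05 in rho0, 57.7% ± 6.96 in PKO-1 and 54.9% ± 10.0 in PKO-6 (mean ± SD over 3 cultures). The main downstream transcript took 38.3% ± 4.06, 44.9% ± 3.92, 38.2% ± 5.84 and 43.4% ± 10.4 in the same order. The ranges of both overlapped between all lines. Of the minor transcripts, a shorter one from the same downstream start took 0% to 0.313% in TM6, below the 0.614% to 1.64% in rho0 and the 0.732% to 1.72% in PKO-1, and overlapped PKO-6 at 0% to 2.22%. The other, from the start furthest downstream, took 1.56% to 4.82% in PKO-1 and 0% to 1.16% in PKO-6, and TM6 and rho0 overlapped both. The shorter of both Scap transcripts took 31.0% ± 5.69 in TM6 and 26.1% to 32.9% in the other lines, again with overlap. RSEM splits reads shared by transcripts by a model, so these shares are estimates.

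Across the 12 libraries, the depth-scaled log2 counts of Srebf2 followed those of Insig1 (Pearson r = 0.962), Srebf1 (0.96) and Mylip (0.908). Insig2 followed Abca1 most closely (0.819) and ran weakly against Scap (-0.335). Nr1h2 had a negative coefficient with each of the other 7 tested members. The points are 4 lines of 3 cultures, so these coefficients mostly describe the order of the lines and carry no test. By the same measure over the 11205 tested genes whose mean was at least 100 normalized counts, the genes most like Insig1 were Fdps (0.995), Hmgcs1 (0.995) and Phka1 (0.994). Fdps and Hmgcs1 are enzymes of the mevalonate pathway. Those most like Srebf2 were Loxl1 (0.996), Elovl1 (0.992) and C2cd2l (0.992), and those most like Abca1 were Cox7b (0.99), Ifih1 (0.989) and Aifm1 (0.989).

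Most genes known to be driven by the 2 SREBPs were lower in the derived lines. Of 22 tested SREBP-2 targets outside the members, 21 were called lower and 0 higher in rho0, and likewise 21 and 0 in PKO, with a median log2 fold change of -2.12 in both and 0.02 and 0.03 over all tested genes. The largest falls were in Nsdhl, at -2.87 in rho0 and -3.10 in PKO, and Cyp51, at -2.79 and -3.05, both enzymes late in cholesterol synthesis. Of 13 tested SREBP-1 targets, 11 were lower in rho0 and 12 in PKO, with medians of -1.07 and -1.30. Over all tested genes, 15.6% were called lower in rho0 and 12.2% in PKO. Elovl6, which lengthens fatty acids, was at -1.84 and -1.89, and the desaturase gene Scd2 at -1.37 and -2.70. Compared directly, Scd2 was lower in PKO than in rho0 by -1.33 (SE 0.184, edgeR adjusted p = 0.000354). Counts of targets and members come from the same libraries and were chosen with these results known.

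Of 18 tested genes of SREBP processing, 2 were higher and 4 lower in rho0, and 2 were higher and 3 lower in PKO, with medians of -0.17 and -0.10. These counts lie near the background of 29.3% of all tested genes called in rho0 and 25.7% in PKO. Paqr3, which anchors Scap at the Golgi, rose by 3.12 in rho0 and 2.39 in PKO. It differed between the clones by -2.07, from 324.2 normalized counts in PKO-1 to 1361 in PKO-6. Vcp, an extraction ATPase that helps destroy Insig-1, was lower, with log2 fold changes of -0.95 and -1.03.

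Among 20 genes of uptake and movement, 2 were higher and 8 lower in rho0, and 3 were higher and 6 lower in PKO, with medians of -0.04 and 0.22, beside 29.3% and 25.7% of all tested genes called and 15.6% and 12.2% called lower. Vldlr, a receptor for triglyceride-rich particles, rose from 272.1 ± 33.0 normalized counts in TM6 to 8760 ± 118 in rho0, 4233 ± 58.7 in PKO-1 and 5474 ± 206 in PKO-6 (mean ± SD over 3 cultures). Its log2 fold change was 5.01 in rho0 (SE 0.159, edgeR adjusted p = 4.07e-09) and 4.16 in PKO (SE 0.147, edgeR adjusted p = 5.66e-09). Per length, Vldlr went from 1.02 to 32.5 TPM between TM6 and rho0. Stard4, which carries sterols between membranes, was among the genes called lower, with log2 fold changes of -1.80 in rho0 and -1.87 in PKO.

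Around LXR, Rxra, a partner of both LXRs, was lower, at -1.11 in rho0 and -0.82 in PKO, while its relative Rxrb rose by 0.69 and 0.65. The coactivator gene Ncoa1 rose by 1.23 and 0.86. Of 11 tested partners and cofactors, 3 were higher and 1 lower in rho0, and 2 were higher and 1 lower in PKO, near the background of 29.3% and 25.7% of all tested genes called. Of 7 tested LXR targets outside the members, 2 were lower and 0 higher in both comparisons, again near that background. They were Scd1, which is also an SREBP-1 target, at -1.07 and -1.89, and Lpcat3, a phospholipid remodelling enzyme, at -0.60 and -0.93. The median of those 7 was 0.17 in rho0 and 0.44 in PKO. Of 9 tested genes of esterification and oxysterols, 3 were higher and 1 lower in rho0, and 4 were higher and 0 lower in PKO, beside the same 29.3% and 25.7%. Soat1, which stores cholesterol as esters, rose by 0.75 and 0.73.

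**Figure D5:**
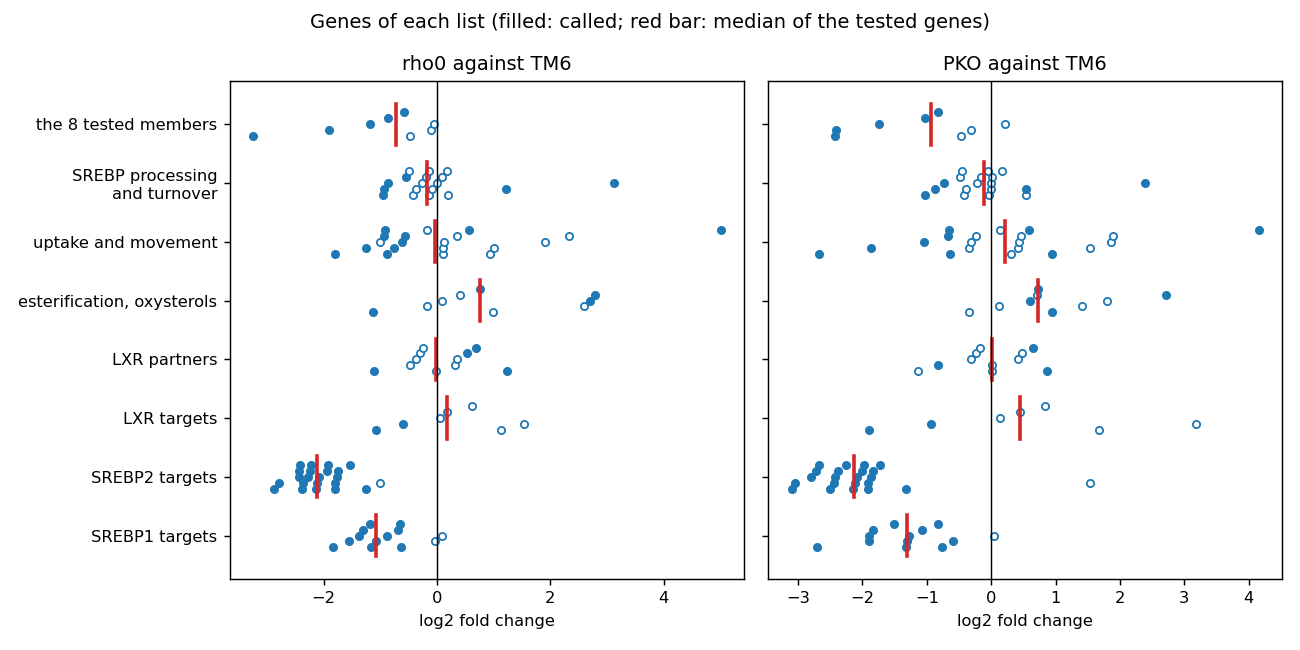
Log2 fold changes of the tested genes in the members and in 7 lists, for rho0 and for PKO against TM6, filled where called, with the median of each list as a red bar. The SREBP-2 targets lie around -2.12 in both panels and the SREBP-1 targets around -1.07 and -1.30, while the other lists spread on both sides of 0.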

How the data were processed

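RNA of 12 cultures, 3 per line, was sequenced as strand-specific, paired-end libraries of total RNA depleted of ribosomal RNA, each made in technical duplicates whose reads were merged. The authors aligned reads to RefSeq transcripts of mm10 (GRCm38) with RSEM 1.2.25 and deposited expected counts per gene, which RSEM estimates and which need not be whole. Expected counts and TPM values per transcript were deposited for each library, and gene levels in TPM here are sums over the authors' transcript values. RNA was extracted with either of 2 kits, and the sources used here do not say which library had which. Depth, 47164860 to 67991378 counts a library, leaves Abca1 at low counts outside TM6 and Abcg1 at 0 to 20, and ribosomal Rn45s took 12.2% to 19.6%.

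Counts were rounded and tested with edgeR 4.0.16 in R 4.3.3 by glmQLFit and glmQLFTest, with TMM scaling, filterByExpr at a minimum count of 10 (14026 of 24453 genes) and Benjamini-Hochberg adjustment over all tested genes. The PKO comparisons pooled both clones in a fit of 3 groups, after the study's methods, and each clone alone came from a fit of the 4 lines. Genes were called where adjusted p was under 0.01 and the log2 fold change over 0.5 in size. DESeq2 1.42.0, other scalings, filters and thresholds, removal of chromosome medians, a replicate block and leaving out each library were alternatives. The fit was tested on simulated data. The members and lists were chosen with earlier results of these data known. From each list, up to 3 higher and 3 lower called genes per comparison with at least 100 normalized counts on average could be named. Some genes counted in these lists are not reported by name here. Apob in other comparisons was named after its values were seen. Cultures of 1 clone measure the spread within that clone.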

Additional observations from a re-analysis of the deposited data

Results flagged for a closer look

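Members that differed between derived lines in a direct test merit a closer look. Between PKO-1 and PKO-6, the log2 fold change was -0.54 for Scap, 0.67 for Insig2 and 1.01 for Abca1. Between PKO and rho0 it was -0.56 for Srebf2. No library stood apart from the other 5 in any of 8 checks of the pooled PKO group against Dixon's critical value, and groups of 3 libraries were not checked. Where the clones lay apart, as for Insig2, the gap between them filled most of the range. There the check could hardly find a deviant library.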

How the results depend on the processing

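Of 1032 values of the tested members under alternatives, 992 kept their direction and their side of the threshold, 23 lost the call, 15 gained one and 2 changed sign: Insig2 between PKO-1 and TM6 was at 0.01 without PKO-1 replicate 2 (-0.07 to 0.01 with each library left out), and Srebf2 between PKO-1 and PKO-6 was at 0.02 with the chromosome medians removed, neither of them called. The cause was not tested. With an absolute log2 fold change above 1, the members called were 3 in rho0 against TM6, 0 in PKO against rho0, 3 in PKO-1 against TM6 and 1 between the clones. For PKO against rho0 the count of 1 became 4 with the 4 lines fitted separately and 2 with the chromosome medians removed, with DESeq2, with adjusted p below 0.01 alone or with adjusted p below 0.05, and it ran from 0 (without rho0 replicate 1) to 2 (without PKO-1 replicate 3) with each library left out. Left-out libraries gave 4 to 5 members in rho0 against TM6, 5 to 6 in PKO against TM6, 6 to 7 in each clone against TM6 and 2 to 4 between the clones. The same left-out libraries gave 3172 to 4231 called genes in rho0 against TM6, 2874 to 3712 in PKO against TM6 and 841 to 1699 between PKO and rho0. They gave 4597 to 4888 in PKO-1 against TM6, 5657 to 5962 in PKO-6 against TM6 and 3820 to 4178 between the clones. For the other settings, calls over all genes are given as ranges over all alternatives. Those between PKO and rho0 ranged from 667 (log2 fold change above 1) to 3330 (4 lines). Those in rho0 against TM6 ranged from 2042 to 5902, in PKO against TM6 from 1788 to 4911, in PKO-1 against TM6 from 2274 to 7611, in PKO-6 against TM6 from 3038 to 8549 and between the clones from 1950 to 7014.

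Replicate numbers were not treated as pairs. Deviations of libraries with the same number correlated at -0.385 to 0.25, with a median of 0.124. Those of libraries with different numbers correlated at -0.415 to 0.49, with a median of -0.047. Of 12 libraries, 5 correlated best with their own number, so a weak pairing was neither shown nor excluded. With the replicate number as a block, 4 members were called in rho0 against TM6, since Insig2 had an adjusted p of 0.0139. Depth limits Abcg1, which did not pass the filter on low counts. Without that filter it had adjusted p of 0.0066 in rho0, 0.00223 in PKO, 0.000453 in PKO-1 and 0.000257 in PKO-6 against TM6 by edgeR's quasi-likelihood test.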
